A study of Mus musculus with 4 samples.

Results

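The cadherin superfamily genes described here are the numbered cadherins (Cdh followed by digits) and the non-clustered protocadherins (Pcdh followed by digits, with or without a final x). They were matched by a rule on the symbol, which leaves out the clustered alpha, beta and gamma protocadherins. This family and all gene lists below were chosen with earlier results of these data known. Shares of members set beside those of all genes are therefore descriptions. The rule found 36 of the 25259 genes measured. Of these, 29 had a mean normalised read count of at least 10 over all libraries and were tested; Cdh1, Cdh3, Cdh16, Cdh17, Cdh26, Cdh29 and Pcdh12 had less. Messenger RNA was sequenced from striatum of C57BL/6 mice aged 8 weeks, taken by laser capture microdissection. The mice were Foxp2hum/hum, homozygous for a Foxp2 allele made to encode the human form of this forkhead transcription factor, or wild-type. The captured tissue was dorsomedial striatum (DMS), tied to goal-directed learning, or dorsolateral striatum (DLS), tied to habits. There were 12 libraries of Foxp2hum/hum DMS, 12 of Foxp2hum/hum DLS, 11 of wild-type DMS and 11 of wild-type DLS, each made from 15 ng of total RNA. The labels tie no library to an animal, so a p-value measures the spread between libraries, and it is too small where libraries of a group share an animal.

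Cadherins are membrane proteins that bind cadherins of neighbouring cells when calcium is present. Classical cadherins hold the actin skeleton through catenins, and their type I and type II branches differ in the adhesive interface. The non-clustered delta protocadherins bind more weakly, and their tails carry short motifs: that of the delta-1 branch binds protein phosphatase 1 alpha, and a motif in several delta-2 tails recruits the WAVE actin regulator. In the brain, members of both families take part in the sorting of neurons, the guidance of axons and the matching of synaptic partners, and many are expressed in patches that follow the borders of nuclei and circuits.

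The stretch of 250 bases upstream of the annotated start site is shown for 5 of the 13 members whose level differed between the regions. These start sites were not matched to the mm9 gene spans given below, and they can differ from the starts of those spans, as may be so for Cdh9. The sequences are from RefSeq on GRCm38.p6, 5′ to 3′ on the gene's strand, with matches to TATAAA or GGGCGG (either strand) in capitals. Pcdh8 lies at chr14:79771313-79771562 (minus strand), Pcdh10 at chr3:45378148-45378397 (plus strand), Pcdh19 at chrX:133688994-133689243 (minus strand), Cdh15 at chr8:122848124-122848373 (plus strand) and Cdh9 at chr15:16728665-16728914 (plus strand).
Pcdh8: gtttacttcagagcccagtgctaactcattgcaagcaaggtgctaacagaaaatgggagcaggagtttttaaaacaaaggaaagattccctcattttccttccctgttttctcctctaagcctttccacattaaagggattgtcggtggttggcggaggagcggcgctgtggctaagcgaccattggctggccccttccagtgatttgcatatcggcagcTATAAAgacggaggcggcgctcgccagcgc
Pcdh10: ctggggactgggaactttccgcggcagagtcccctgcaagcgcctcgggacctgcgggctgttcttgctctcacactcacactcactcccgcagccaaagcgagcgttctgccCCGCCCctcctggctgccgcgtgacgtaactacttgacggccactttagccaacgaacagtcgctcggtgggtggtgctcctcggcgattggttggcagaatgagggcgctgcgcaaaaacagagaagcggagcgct
Pcdh19: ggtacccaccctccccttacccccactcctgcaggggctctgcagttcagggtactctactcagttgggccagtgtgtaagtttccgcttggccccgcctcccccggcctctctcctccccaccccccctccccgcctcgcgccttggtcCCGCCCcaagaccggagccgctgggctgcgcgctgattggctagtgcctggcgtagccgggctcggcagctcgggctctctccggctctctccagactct
Cdh15: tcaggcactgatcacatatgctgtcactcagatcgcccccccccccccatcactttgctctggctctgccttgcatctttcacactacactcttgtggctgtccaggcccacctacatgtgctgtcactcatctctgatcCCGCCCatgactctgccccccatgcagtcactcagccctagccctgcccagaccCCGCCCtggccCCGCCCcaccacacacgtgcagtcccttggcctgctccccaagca
Cdh9: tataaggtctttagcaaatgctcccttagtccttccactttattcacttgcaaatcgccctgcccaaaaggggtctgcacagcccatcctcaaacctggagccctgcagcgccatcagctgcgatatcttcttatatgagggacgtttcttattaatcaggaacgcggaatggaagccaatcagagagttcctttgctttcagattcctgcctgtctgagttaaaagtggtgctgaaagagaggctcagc
Pcdh8 had a TATAAA match that began 30 bases before the start site. Pcdh10 and Pcdh19 each had 1 GGGCGG match, Cdh15 had 3, and Cdh9, the member most clearly lower in DMS, had neither motif. Promoters were matched for 22 members, some of them with several start sites, which gave 25 promoters. GGGCGG was present in 9 of the 25 (36%), against 32.74% of all 32851 promoters of the same length in the table, and TATAAA in 2 of 25 (8%), against 12.37%. TGTTTAC, a core that forkhead proteins bind, was present in 0 of 25, against 3.17% of all promoters, and TGACGTCA, the full cyclic AMP response element, in 0 of 25, against 1.55%. Both strands were searched, and none of these 4 motifs contains another. The median GC content of the 25 was 58.4%, against 52.4% for all promoters.

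Levels differed widely among the members. Per kb of exon, the highest means over all 46 libraries were 237 normalised reads for Cdh18, 231 for Cdh8, 205 for Pcdh9, 180 for Pcdh17 and 173 for Cdh11. The first, the second and the last of these are type II cadherins, Pcdh9 is a delta-1 protocadherin, and Pcdh17 is a delta-2 protocadherin that in mice organises presynaptic terminals of basal ganglia circuits. At the other end were the untested epithelial genes Cdh3 (P-cadherin, 0.32 reads per kb of exon) and Cdh17 (liver-intestine cadherin, 0.33 reads per kb of exon). Reads may have been counted over whole gene spans, introns included. Per kb of span the order was another one: Pcdh1 led with 32.8 reads per kb of span, then Pcdh10 with 30.5, Pcdh17 with 18.3, Pcdh8 with 14.7 and Pcdh20 with 9.67. Pcdh17 alone was among the 5 highest on both scales, so levels per kb are given as descriptions that depend on the length used.

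**Figure D1:**
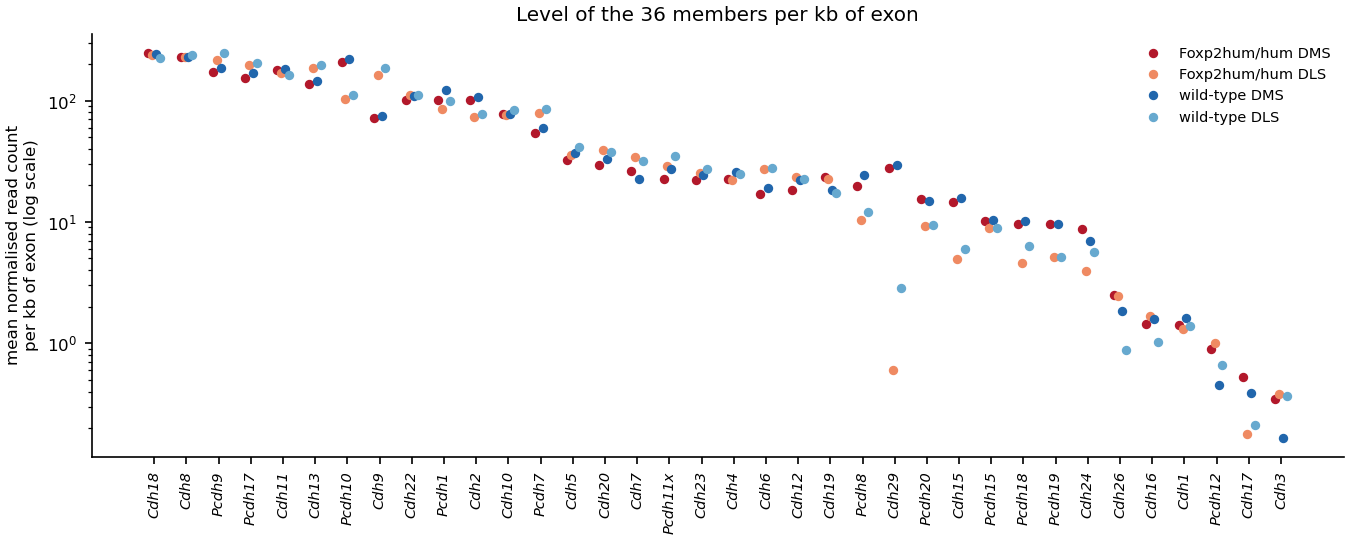
Mean normalised read count per kb of exon (log scale) of the 36 members in each of the 4 groups, ordered by the mean over all libraries; each point is a group mean of 11 or 12 libraries. The 4 points of most members lie close together. Among those that move by about 2-fold or more are Pcdh8, Pcdh10, Pcdh19 and Cdh15 (higher in DMS) and Cdh9 (lower in DMS). Cdh29 is far lower in both DLS groups than in the DMS groups.

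Cdh18 had 890.4, 1134 and 1316 normalised reads in the lowest, the median and the highest Foxp2hum/hum DMS library, 926, 1052 and 1364 in Foxp2hum/hum DLS, 876, 1082 and 1409 in wild-type DMS and 921, 1004 and 1248 in wild-type DLS. For Cdh8, a cadherin expressed in striatal and cortical neurons, the same 3 values were 1526, 1741 and 2209 in Foxp2hum/hum DMS libraries, 1482, 1695 and 2056 in Foxp2hum/hum DLS, 1167, 1788 and 2281 in wild-type DMS and 1448, 1836 and 2318 in wild-type DLS. The 4 groups overlapped almost completely for both genes. Per kb of exon, Cdh18 averaged 247 ± 27.8 and Cdh8 228 ± 25.5 in Foxp2hum/hum DMS (SD, n = 12), so these neighbours in the order differed by less than their spread. A part of the Cdh18 value may come from other genes: Gm5461, which lies within it on the opposite strand, had 47.63% as many reads, and RP24-163L18.1, within it on the same strand, had 12.65%. For Cdh8, the partly overlapping Gm15679 (opposite strand) had 40.07% as many reads and Gm15680 (same strand) 18.8%.

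Pcdh17 had 849, 1460.3 and 2164 in the lowest, the median and the highest library of the Foxp2hum/hum DMS group, 1193, 1686 and 3027 in Foxp2hum/hum DLS, 929, 1619 and 2078 in wild-type DMS and 1423, 1987 and 2907 in wild-type DLS. Cdh11, known as OB-cadherin, had 638, 727 and 911 in Foxp2hum/hum DMS libraries, 487, 705 and 1016 in Foxp2hum/hum DLS, 512, 779.8 and 918 in wild-type DMS and 449, 704 and 798 in wild-type DLS. Neither gene passed the test between regions in either genotype. The log2 difference of Pcdh17 was -0.33 in Foxp2hum/hum (limma adjusted p = 0.114) and -0.29 in wild-type (limma adjusted p = 0.19), and that of Cdh11 was 0.12 in Foxp2hum/hum (limma adjusted p = 0.463) and 0.17 in wild-type (limma adjusted p = 0.287).

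The regions differed in many members and in both directions. In Foxp2hum/hum mice, 12 of the 29 tested members passed the threshold (limma, Benjamini-Hochberg adjusted p under 0.05 over all genes tested), 8 higher and 4 lower in DMS than in DLS, or 41.4% of the members; among all 19561 genes tested, 18.1% passed (9.33% higher and 8.82% lower). In wild-type mice, 11 of the 29 passed, 6 higher and 5 lower, or 37.9%; among all genes, 17.3% passed (8.54% higher and 8.72% lower). The median absolute log2 difference of the members was 0.35 in Foxp2hum/hum, where it was 0.18 over all genes, and 0.29 in wild-type, where it was 0.19 over all genes. The genotypes have no library in common, and 26 of the 29 members had the same sign in both. This share was not computed over all genes, so it does not set the members apart. At an unadjusted p under 0.05 there were 18 members in Foxp2hum/hum (28.8% of all genes) and 12 in wild-type (28.4% of all genes). Of the 13 members that passed in either genotype, 10 passed in both: Cdh2, Cdh15, Pcdh8, Pcdh10, Pcdh19 and Pcdh20 were higher in DMS, and Cdh7, Cdh9, Cdh13 and Pcdh7 were lower. Pcdh18 and Cdh24 passed in Foxp2hum/hum only and Pcdh9 in wild-type only, but the test of the difference between genotypes (the interaction) passed for none of the members (limma adjusted p = 1 for each). In bulk tissue, fewer cells of a type and less RNA per cell cannot be told apart.

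The split of directions moved with the scaling. When libraries were scaled by their total counts, the median log2 difference of all genes was 0.19 in Foxp2hum/hum and 0.10 in wild-type; with the authors' size factors it was 0.02 in Foxp2hum/hum and 0.01 in wild-type. Under that scaling, 10 members passed in Foxp2hum/hum, 9 higher and 1 lower, and 7 passed in wild-type, 6 higher and 1 lower. The shares of all genes that passed under other scalings are not given here or below, so this split does not set the members apart. The 1 lower was Cdh9 in both genotypes: Cdh7, Cdh13 and Pcdh7 did not pass under that scaling in either genotype, nor did Pcdh9 in wild-type, and their log2 differences stayed negative.

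**Figure D2:**
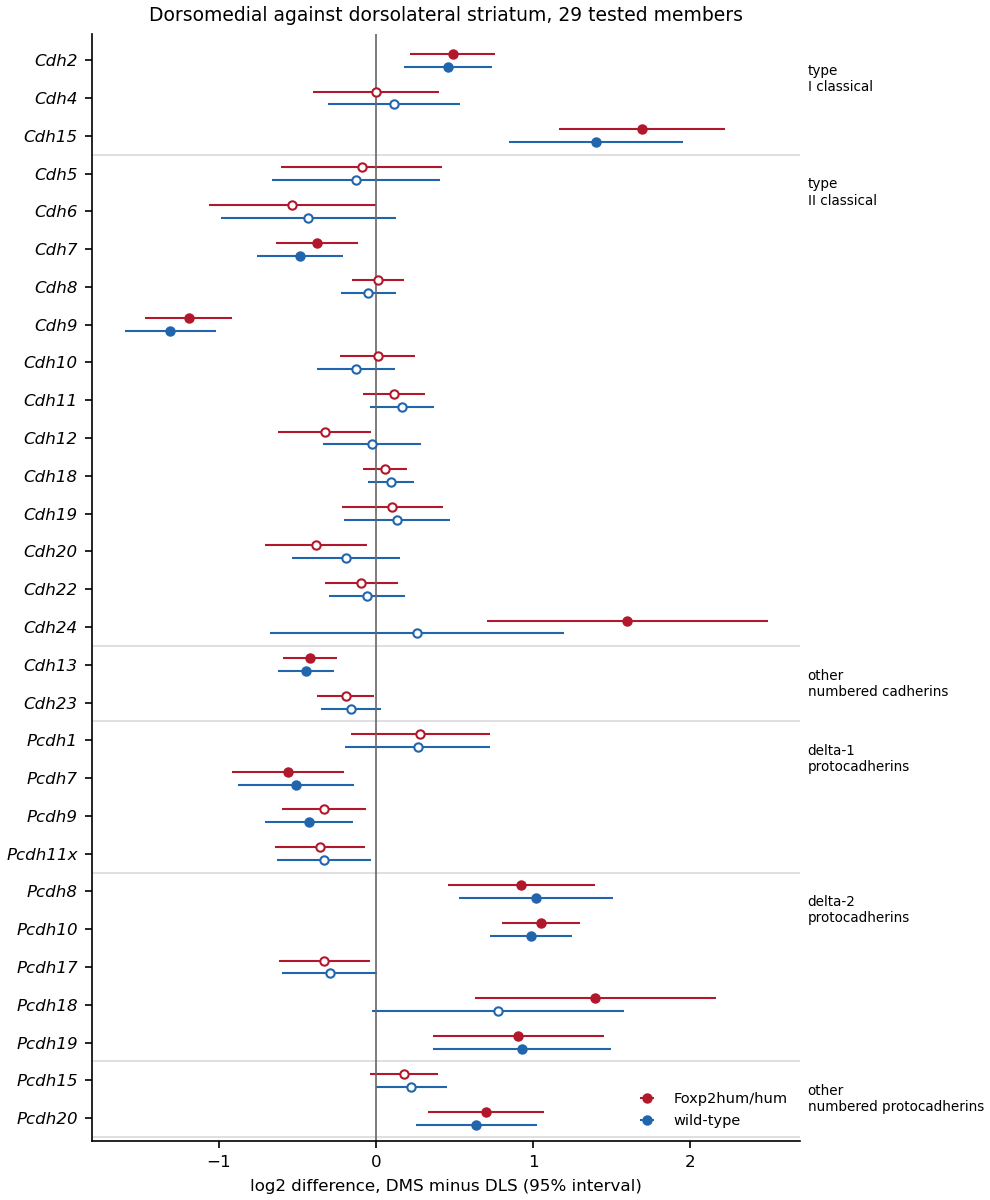
Log2 difference between DMS and DLS with its 95% limma interval for the 29 tested members, grouped by branch, in Foxp2hum/hum (red) and wild-type (blue) mice; filled points passed the adjusted threshold of 0.05. Delta-2 protocadherins other than Pcdh17 lie to the right (higher in DMS), and delta-1 protocadherins other than Pcdh1 lie to the left.

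Among the type I cadherins, 2 of the 3 tested, Cdh2 and Cdh15, were higher in DMS in each genotype, and none was lower. Of all genes, 18.1% passed in Foxp2hum/hum and 17.3% in wild-type. Cdh15 (chr8:125371866-125391297 on mm9, plus strand) is M-cadherin, best known from skeletal muscle and cerebellar granule neurons. In Foxp2hum/hum mice its lowest, median and highest library had 29.1, 45.7 and 84.99 normalised reads in DMS, against 1.93, 18.4 and 27.6 in DLS. In wild-type mice the values were 35.02, 47.4 and 72.3 in DMS, against 9.79, 17.7 and 37.5 in DLS. All 12 DMS libraries lay above all 12 DLS libraries in Foxp2hum/hum, and in wild-type the groups overlapped only through the highest DLS library. Cdh15 was 3.24-fold higher in DMS in Foxp2hum/hum (log2 difference 1.7, 95% interval 1.17 to 2.22, limma adjusted p = 1.76e-06) and 2.64-fold higher in wild-type (log2 difference 1.4, 95% interval 0.85 to 1.95, limma adjusted p = 0.000116). Cdh2 is N-cadherin, the main classical cadherin of neurons and glia, and it had far more reads. Its lowest, median and highest library had 564, 786 and 1172 in Foxp2hum/hum DMS, against 319, 547 and 894 in Foxp2hum/hum DLS. In wild-type, Cdh2 had 580.3, 809 and 1167 in DMS, against 462, 640.1 and 862 in DLS. The regions overlapped in both genotypes, and the difference was 1.4-fold in Foxp2hum/hum (log2 difference 0.49, 95% interval 0.22 to 0.76, limma adjusted p = 0.00585) and 1.37-fold in wild-type (log2 difference 0.46, 95% interval 0.18 to 0.74, limma adjusted p = 0.0156). Cdh4, R-cadherin, averaged 162 ± 46.3 in DMS and 161 ± 44.5 in DLS of Foxp2hum/hum mice (SD, n = 12 each), with a log2 difference of 0.00 (95% interval -0.40 to 0.40).

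Of the 13 type II cadherins, all tested, 2 were lower in DMS in each genotype (Cdh9 and Cdh7), and Cdh24 was higher in Foxp2hum/hum. In Foxp2hum/hum 3 of 13 passed, where 18.1% of all genes did, and in wild-type 2 of 13, where 17.3% did, so the branch as a whole was near the share of all genes. Cdh9 (chr15:16707856-16786522 on mm9, plus strand), which in mice takes part in wiring specific synapses of the hippocampus and retina, gave the smallest p of all members. Its lowest, median and highest library had 140.4, 216 and 253 normalised reads in Foxp2hum/hum DMS, against 353, 468 and 569.8 in Foxp2hum/hum DLS. In wild-type, Cdh9 had 105, 220.5 and 275 in DMS, against 244, 539 and 796 in DLS. No DMS library reached any DLS library in Foxp2hum/hum; in wild-type only the lowest DLS library fell within the DMS range. Cdh9 was 2.29-fold lower in DMS in Foxp2hum/hum (log2 difference -1.19, 95% interval -1.47 to -0.91, limma adjusted p = 2.34e-09) and 2.48-fold lower in wild-type (log2 difference -1.31, 95% interval -1.6 to -1.02, limma adjusted p = 6.88e-10). Per kb of exon this put it in place 12 of the 36 members in both DMS groups, but in place 7 in Foxp2hum/hum DLS and place 6 in wild-type DLS.

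Cdh7, known from chick neural crest, had 139, 231 and 297 in its lowest, median and highest library of Foxp2hum/hum DMS, against 227, 265 and 445 in Foxp2hum/hum DLS. In wild-type, Cdh7 had 119, 181 and 280.3 in DMS, against 224, 272 and 438 in DLS. The regions overlapped in both genotypes, and Cdh7 was 1.3-fold lower in DMS in Foxp2hum/hum (log2 difference -0.38, 95% interval -0.64 to -0.12, limma adjusted p = 0.0352) and 1.4-fold lower in wild-type (log2 difference -0.48, 95% interval -0.76 to -0.21, limma adjusted p = 0.00832). The Foxp2hum/hum call was lost when any of libraries 31, 49, 64, 87, 61, 83 or 94 was left out, with limma adjusted p up to 0.0822. Cdh24 had few reads: its lowest, median and highest library had 8.6, 21.5 and 67.02 in Foxp2hum/hum DMS, against 0, 7.57 and 30.6 in Foxp2hum/hum DLS, where 2 libraries had none. In wild-type, Cdh24 had 3.93, 21.5 and 30.5 in DMS, against 4.33, 15.7 and 26.96 in DLS. It passed in Foxp2hum/hum (log2 difference 1.6, 95% interval 0.70 to 2.5, limma adjusted p = 0.00682) but not in wild-type (log2 difference 0.26, 95% interval -0.67 to 1.2, limma adjusted p = 0.764), and in Foxp2hum/hum it missed the threshold with edgeR (adjusted p = 0.0594). Cdh24 partly overlaps CT009512.1 on the opposite strand, which had 1601.79% as many reads. The other 10 type II cadherins did not pass in either genotype: their log2 differences ran from -0.53 (Cdh6) to 0.12 (Cdh11) in Foxp2hum/hum and from -0.43 (Cdh6) to 0.17 (Cdh11) in wild-type. These 10 include Cdh5, VE-cadherin of endothelial cells, with a log2 difference of -0.09 in Foxp2hum/hum (limma adjusted p = 0.858) and -0.13 in wild-type (limma adjusted p = 0.802).

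**Figure D3:**
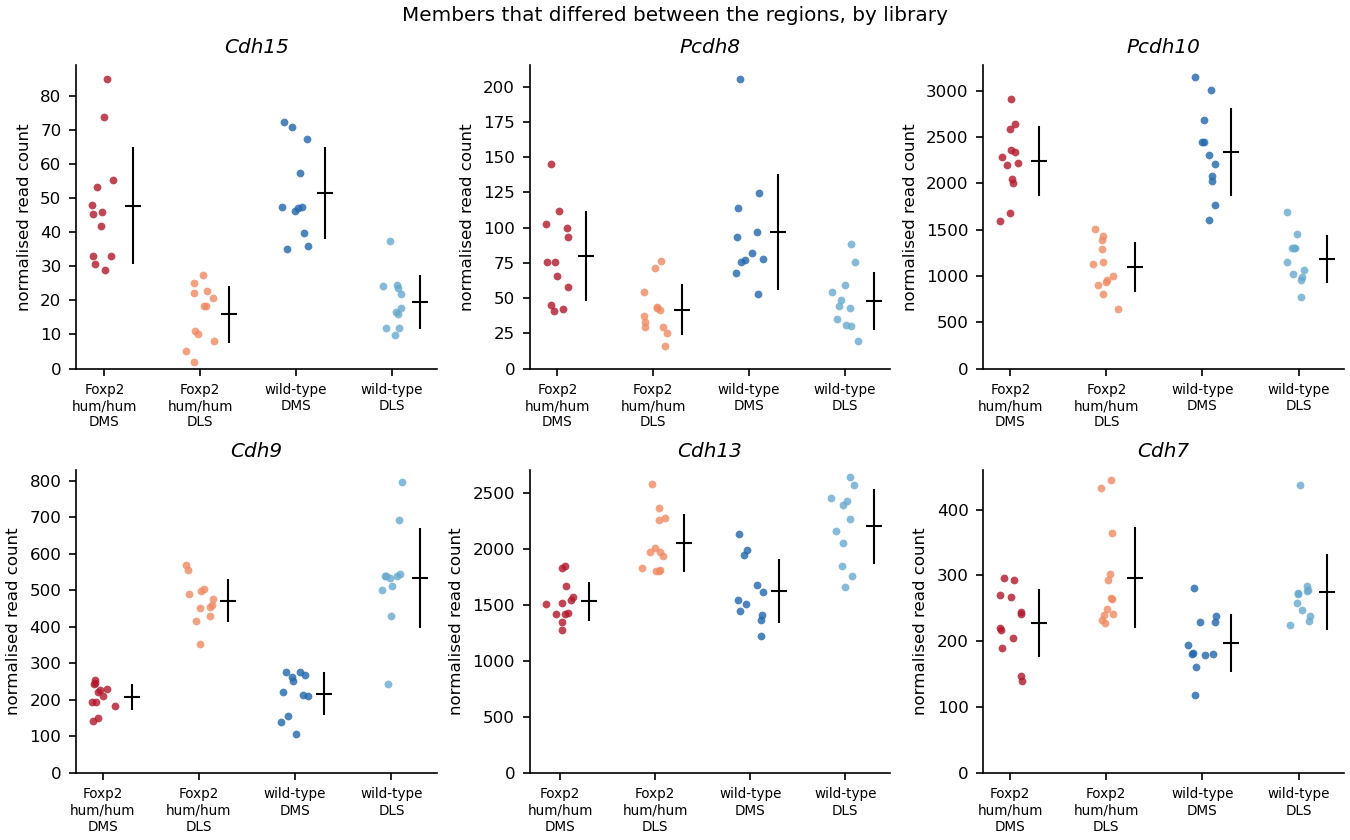
Normalised read counts of 6 members in each library, with the group mean and SD beside the points, for Foxp2hum/hum DMS and DLS and wild-type DMS and DLS. The upper row (Cdh15, Pcdh8, Pcdh10) is higher in DMS and the lower row (Cdh9, Cdh13, Cdh7) is lower in DMS; for Cdh15, Pcdh10 and Cdh9 the Foxp2hum/hum regions do not overlap.

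Cdh13 and Cdh23 were the tested members of neither branch. Cdh13 (chr8:120807633-121848821 on mm9, plus strand), T-cadherin, has no tail inside the cell and is held to the membrane by a lipid anchor; it binds adiponectin. Its lowest, median and highest library had 1276, 1518 and 1854 in Foxp2hum/hum DMS, against 1802, 1973 and 2587 in Foxp2hum/hum DLS. In wild-type, Cdh13 had 1224, 1542 and 2138 in DMS, against 1662, 2271 and 2642 in DLS. The ranges overlapped at their edges in Foxp2hum/hum and more widely in wild-type, and Cdh13 was 1.34-fold lower in DMS in Foxp2hum/hum (log2 difference -0.42, 95% interval -0.59 to -0.25, limma adjusted p = 0.000164) and 1.36-fold lower in wild-type (log2 difference -0.44, 95% interval -0.62 to -0.27, limma adjusted p = 0.00015). Cdh23 and Pcdh15, which join into the tip link of inner ear hair cells, did not pass in either genotype. Genes that lie within them had many reads, and part of their values may come from these genes. For Cdh23, 4632428N05Rik on the opposite strand had 90.03% as many reads, and for Pcdh15, Gm15398 on the opposite strand had 43.38% and RP24-174M12.2 on the same strand 38.78%. The genes within Pcdh15 had together more reads than Pcdh15 itself in 2 libraries each of Foxp2hum/hum DLS, wild-type DMS and wild-type DLS. Cdh23 averaged 377 ± 69.0 in DMS and 426 ± 55.5 in DLS of Foxp2hum/hum mice (SD, n = 12 each), with a log2 difference of -0.19 (limma adjusted p = 0.15).

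The delta-1 protocadherins were lower in DMS where they passed, and none was higher. In Foxp2hum/hum 1 of 4 passed, where 18.1% of all genes did, and in wild-type 2 of 4, where 17.3% did. Pcdh7, whose tail binds the protein Set, had 234, 293 and 529 in its lowest, median and highest library of Foxp2hum/hum DMS, against 352, 453 and 893 in Foxp2hum/hum DLS. In wild-type, Pcdh7 had 188, 370.4 and 588 in DMS, against 309.8, 468 and 840.2 in DLS. The regions overlapped widely, and Pcdh7 was 1.47-fold lower in DMS in Foxp2hum/hum (log2 difference -0.56, 95% interval -0.92 to -0.21, limma adjusted p = 0.0186) and 1.42-fold lower in wild-type (log2 difference -0.51, 95% interval -0.88 to -0.14, limma adjusted p = 0.0478). The wild-type call is close to the threshold: it held in 24 of the 46 fits that each left out 1 library, with limma adjusted p between 0.0203 and 0.113, the highest without library 50. Pcdh9 had 495, 602 and 965 in Foxp2hum/hum DMS, against 655, 724 and 1289 in Foxp2hum/hum DLS, again with overlap. In wild-type, Pcdh9 had 473, 666 and 1233 in DMS, against 693, 816 and 1400.5 in DLS. It passed in wild-type (log2 difference -0.43, 95% interval -0.71 to -0.15, limma adjusted p = 0.0252) and not in Foxp2hum/hum (log2 difference -0.33, 95% interval -0.60 to -0.06, limma adjusted p = 0.0811). The wild-type call was lost when any of libraries 34, 50, 56, 76, 70 or 89 was left out (limma adjusted p up to 0.0628), and without library 80 Pcdh9 passed in Foxp2hum/hum as well (limma adjusted p = 0.0351). Pcdh11x, the X-linked delta-1 member, had log2 differences of -0.35 in Foxp2hum/hum (limma adjusted p = 0.079) and -0.33 in wild-type (limma adjusted p = 0.128). For Pcdh1 they were 0.28 in Foxp2hum/hum (limma adjusted p = 0.427) and 0.27 in wild-type (limma adjusted p = 0.475).

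The delta-2 protocadherins were higher in DMS where they passed, and none was lower. In Foxp2hum/hum 4 of 5 passed, where 18.1% of all genes did, and in wild-type 3 of 5, where 17.3% did. Pcdh10 (chr3:45182320-45238488 on mm9, plus strand), also called OL-protocadherin, is needed in mice for axon growth through the ventral forebrain and for activity-driven loss of synapses. Its lowest, median and highest library had 1591, 2254 and 2907 in Foxp2hum/hum DMS, against 640.0, 1064 and 1505 in Foxp2hum/hum DLS. In wild-type, Pcdh10 had 1605, 2303 and 3149.6 in DMS, against 767, 1155 and 1688 in DLS. No DLS library reached any DMS library in Foxp2hum/hum, while in wild-type the highest DLS library lay just above the lowest DMS library. Pcdh10 was 2.07-fold higher in DMS in Foxp2hum/hum (log2 difference 1.05, 95% interval 0.80 to 1.3, limma adjusted p = 2.86e-09) and 1.98-fold higher in wild-type (log2 difference 0.99, 95% interval 0.73 to 1.25, limma adjusted p = 4.56e-08). It was the only member past the threshold in both genotypes under each alternative setting and with each library left out. Libraries of the regions did not overlap in Foxp2hum/hum for 3 of 29 members (Cdh9, Cdh15 and Pcdh10), where 2.2% of all genes tested did not overlap, and in wild-type for 0 of 29, where 1.95% of all genes did not.

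Pcdh8, arcadlin, is induced by neuronal activity and in rat neurons draws N-cadherin into the cell through the kinase Taok2. It had 40.8, 75.7 and 145 in its lowest, median and highest library of Foxp2hum/hum DMS, against 16.2, 39.3 and 76.4 in Foxp2hum/hum DLS. In wild-type, Pcdh8 had 53.00, 81.9 and 206 in DMS, against 19.3, 44.6 and 88.2 in DLS. The regions overlapped in both genotypes, and the highest DMS value of wild-type came from library 72. Pcdh8 was 1.9-fold higher in DMS in Foxp2hum/hum (log2 difference 0.93, 95% interval 0.46 to 1.39, limma adjusted p = 0.00257) and 2.03-fold higher in wild-type (log2 difference 1.02, 95% interval 0.53 to 1.51, limma adjusted p = 0.00152). Pcdh19 is X-linked, forms a complex with N-cadherin and is mutated in a human epilepsy that affects mainly girls and women. Its lowest, median and highest library had 59.3, 94.9 and 148 in Foxp2hum/hum DMS, against 31.9, 49.4 and 80.3 in Foxp2hum/hum DLS. In wild-type, Pcdh19 had 15.9, 97.4 and 174 in DMS, against 9.67, 48.96 and 119 in DLS. The regions overlapped, more so in wild-type, and Pcdh19 was 1.87-fold higher in DMS in Foxp2hum/hum (log2 difference 0.91, 95% interval 0.36 to 1.45, limma adjusted p = 0.0127) and 1.9-fold higher in wild-type (log2 difference 0.93, 95% interval 0.36 to 1.5, limma adjusted p = 0.0153).

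Pcdh18, a delta-2 protocadherin that binds the adaptor Dab1 in mice, had 15.3, 51.5 and 76.7 in its lowest, median and highest library of Foxp2hum/hum DMS, against 0, 26.6 and 51.1 in Foxp2hum/hum DLS. In wild-type, Pcdh18 had 29.6, 54.8 and 81.6 in DMS, against 5.37, 35.7 and 57.6 in DLS. The DMS means were close to each other, and 1 Foxp2hum/hum DLS library had no read. Pcdh18 passed in Foxp2hum/hum (log2 difference 1.4, 95% interval 0.63 to 2.16, limma adjusted p = 0.00571) and not in wild-type (log2 difference 0.78, 95% interval -0.02 to 1.58, limma adjusted p = 0.192). Outside the delta branches, Pcdh20 was higher in DMS in both genotypes. It had 40.5, 85.4 and 126 in Foxp2hum/hum DMS, against 24.3, 46.6 and 84.6 in Foxp2hum/hum DLS. In wild-type, Pcdh20 had 37.98, 84.6 and 109 in DMS, against 23.4, 54.01 and 68.5 in DLS. The ranges overlapped, with a difference of 1.63-fold in Foxp2hum/hum (log2 difference 0.70, 95% interval 0.33 to 1.07, limma adjusted p = 0.00374) and 1.56-fold in wild-type (log2 difference 0.64, 95% interval 0.25 to 1.02, limma adjusted p = 0.0139).

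Members on the same chromosome did not all share a direction. Chromosome 14 holds 5 members: Pcdh8, Pcdh20 and Cdh24 were higher in DMS in at least 1 genotype, Pcdh9 was lower in wild-type, and Pcdh17 did not pass. Chromosome 8 holds 8 members, of which Cdh15 was higher and Cdh13 lower, and chromosome 15 holds 5, of which only Cdh9 passed. None lies on chromosome 6, which carries Foxp2.

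Some of the genes that work with cadherins inside the cell also passed, from lists of partners named for their known roles; their counts stand beside 18.1% of all genes in Foxp2hum/hum and 17.3% in wild-type. Of 18 catenins and junction partners, 6 were higher and 1 lower in DMS in Foxp2hum/hum, and 5 higher and 1 lower in wild-type. The 1 lower in both was Ctnna1, alpha-E-catenin, which ties the complex to actin: its log2 difference was -0.59 in Foxp2hum/hum (limma adjusted p = 1.6e-08) and -0.59 in wild-type (limma adjusted p = 6.14e-08). Ctnna2, the neuronal alpha-N-catenin, went the other way, with 0.16 (adjusted p in parentheses here and below, 0.0333) in Foxp2hum/hum and 0.19 (0.0124) in wild-type. Beta-catenin (Ctnnb1) had a log2 difference of 0.24 (0.0397) in Foxp2hum/hum and 0.28 (0.0202) in wild-type, and plakoglobin (Jup) had 0.50 (0.000121) in Foxp2hum/hum and 0.62 (7.63e-06) in wild-type. Cdon, a co-receptor that binds N-cadherin and hedgehog proteins, had the largest difference of the list, 1.23 (4.08e-06) in Foxp2hum/hum and 0.99 (0.000322) in wild-type. Arvcf, a relative of the delta-catenins, passed in Foxp2hum/hum only with 0.29 (0.0301), as did the junction protein Plekha7 with 0.74 (0.00638), while the nectin Pvrl2 passed in wild-type only with 0.67 (0.0283). The interaction passed for no gene of the partner lists. With libraries scaled by their total counts, 8 catenins and junction partners were higher and 1 lower in Foxp2hum/hum, and 3 were higher and 1 lower in wild-type. Genes within or across some of these on the opposite strand could share their reads: Lrrtm2 within Ctnna1 had 50.8% as many reads, Lrrtm1 within Ctnna2 had 40.3%, and Comt1, which overlaps Arvcf in part, had 1279.7%.

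Of 11 genes of the WAVE complex and of protocadherin effectors, 5 were lower in DMS and none higher in each genotype. Cyfip2, Nckap1 and Abi1 are subunits of the WAVE complex. The log2 difference of Cyfip2 was -0.62 (0.000529) in Foxp2hum/hum and -0.64 (0.000616) in wild-type, that of Nckap1 -0.35 (0.00739) in Foxp2hum/hum and -0.40 (0.00319) in wild-type, and that of Abi1 -0.29 (0.000122) in Foxp2hum/hum and -0.36 (9.82e-06) in wild-type, with limma adjusted p in parentheses. Ppp1ca, the phosphatase that delta-1 tails bind, had -0.60 (3.53e-06) in Foxp2hum/hum and -0.55 (3.35e-05) in wild-type. Cyfip1 passed in Foxp2hum/hum only with -0.18 (0.0183), and Set in wild-type only with -0.18 (0.022). These counts moved with the scaling: with libraries scaled by their total counts, 1 of the 11 was lower (Ppp1ca, -0.43, limma adjusted p = 0.00252) and 2 were higher in Foxp2hum/hum, and 2 were lower and none higher in wild-type. With quantile normalisation 3 were lower and 1 higher in Foxp2hum/hum, and 3 were lower and none higher in wild-type. No gene that had passed changed sign under either scaling. Of 7 tested proteases that cut cadherins, only Adam10 in wild-type passed, with -0.25 (0.0464). Of 16 tested genes of the superfamily outside the symbol rule, 7 were higher and none lower in Foxp2hum/hum, and 5 were higher and 1 lower (Clstn2, -0.61) in wild-type. The largest were Cdhr4, with 3.89 in Foxp2hum/hum and 4.68 in wild-type, and Cdhr3, with 3.59 in Foxp2hum/hum and 3.66 in wild-type.

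**Figure D4:**
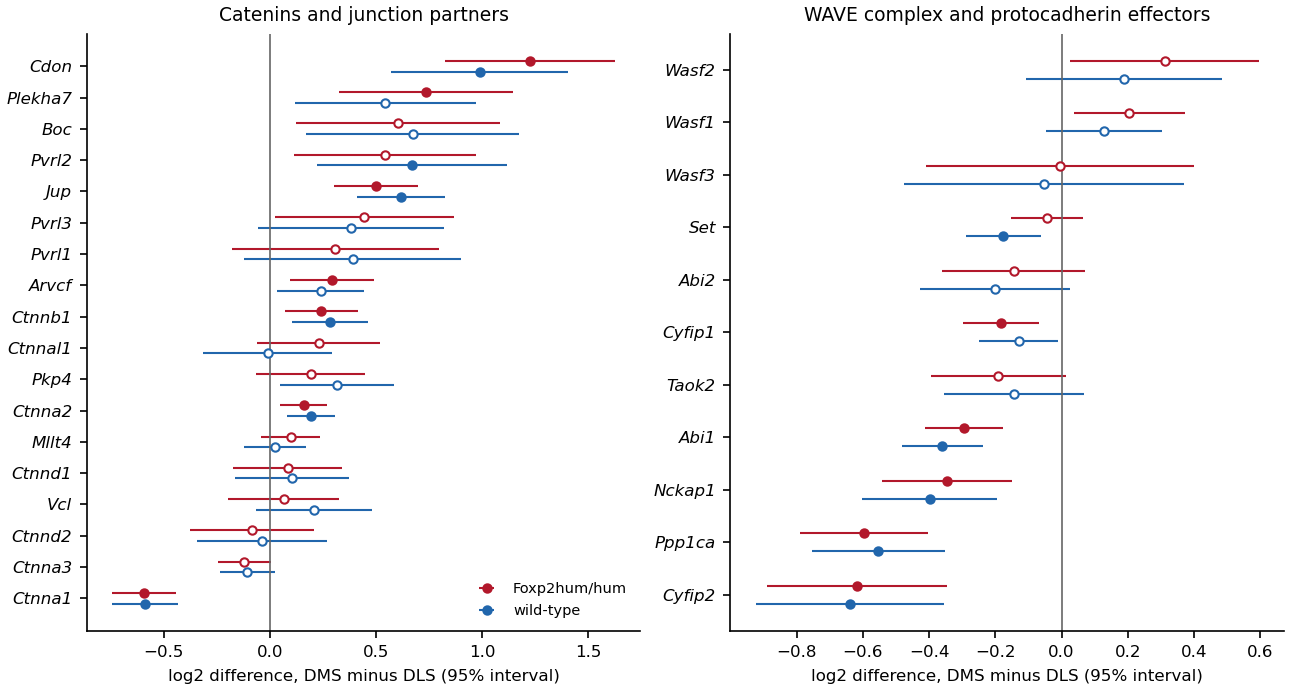
Log2 difference between DMS and DLS with its 95% limma interval for the catenins and junction partners (left) and for the WAVE complex and protocadherin effectors (right), in Foxp2hum/hum (red) and wild-type (blue) mice; filled points passed the adjusted threshold of 0.05. Ctnna1 lies apart from the other catenins, at -0.59 in both genotypes, and each effector that passed lies left of 0.

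Markers of other cells moved with the regions, and their counts stand beside 18.1% of all genes in Foxp2hum/hum and 17.3% in wild-type. Summed markers of choroid plexus and ependyma, which line the ventricle beside DMS, ran from 711 to 7247 normalised reads (median 1497) in Foxp2hum/hum DMS, against 175 to 324 (median 229.5) in Foxp2hum/hum DLS. In wild-type they ran from 425 to 10973 (median 884) in DMS, against 188.5 to 424 (median 233) in DLS. None of the 9 markers of this list was at 0 in all 46 libraries, and 7 of the 9 were higher in DMS in each genotype. All 5 neuroblast markers were higher too, with a summed median of 1602.5 (range 856 to 3116) in Foxp2hum/hum DMS, against 379.6 (226 to 439) in DLS, and of 1388 (932 to 2832) in wild-type DMS, against 348 (304 to 477) in DLS. Markers of striatal projection neurons, the defining cells of the captured tissue, were present throughout, and 6 of 8 were lower in DMS in each genotype. With libraries scaled by their total counts 4 of 8 were lower in each genotype, and with quantile normalisation 3 were lower and 1 higher in Foxp2hum/hum and 3 were lower in wild-type. Their summed median was 97942 in Foxp2hum/hum DMS, against 137178 in DLS, and 101343 in wild-type DMS, against 136252 in DLS. None of the 8 endothelial markers passed, nor did any of 6 mural, 6 microglial and 3 oligodendrocyte precursor markers. Of the other lists, astrocytes had 2 of 6 markers higher and interneurons 3 of 6 lower in each genotype. The median log2 difference of the astrocyte list was nonetheless -0.05 in Foxp2hum/hum and -0.027 in wild-type. Oligodendrocytes had 2 of 6 higher in wild-type, leptomeninges 2 of 6 lower in Foxp2hum/hum and 1 of 6 in wild-type, cortical neurons 1 of 5 higher in wild-type and septal neurons 1 of 4 lower in wild-type. With libraries scaled by their total counts, neither leptomeningeal marker passed as lower in Foxp2hum/hum and another, Igf2, passed as higher, and no septal marker passed. With the level of Ttr, a choroid plexus transcript, as a covariate, 6 members passed in Foxp2hum/hum (Cdh15, Pcdh10 and Cdh24 higher, and Cdh9, Cdh13 and Pcdh7 lower) and 8 in wild-type. With Ttr and Ccdc153, an ependymal transcript, together, 4 passed in Foxp2hum/hum (Pcdh10, Pcdh18, Pcdh20 and Cdh24) and 3 in wild-type (Pcdh10, Pcdh18 and Pcdh20), all higher in DMS. The median standard error over the members was then 0.35 in Foxp2hum/hum and 0.39 in wild-type, and without covariates it was 0.14 in Foxp2hum/hum and 0.15 in wild-type. The median absolute log2 difference was not smaller with both covariates, at 0.51 in Foxp2hum/hum and 0.64 in wild-type. Single members moved either way: Cdh13 in wild-type went from -0.44 to 0.008, and Pcdh18 in Foxp2hum/hum from 1.4 to 3.76. The median therefore does not tell whether the members that lost their call had smaller differences. Shares of all genes that passed with these covariates are not given, so the counts do not tell whether fewer calls are particular to the members. The part of these cells in the regional differences of the members was not tested beyond these fits.

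Whether the humanised allele altered these genes is the other comparison of the design. The transcript counts cannot check the genotype itself, since the allele changes amino acids. No member passed between Foxp2hum/hum and wild-type in DMS (0 of 29), in DLS (0 of 29) or in the interaction (0 of 29), and neither did any of the 19561 genes (0%, limma). At an unadjusted p under 0.05 there was 1 member in DMS (3.58% of all genes), 2 in DLS (4.31% of all genes) and 1 in the interaction (1.64% of all genes). With edgeR and with DESeq2 the count of members was also 0 in each. The 95% interval of the difference stayed within 1.5-fold in either direction for 19 of 29 members in DMS (71.7% of all genes) and 21 of 29 in DLS (70.1% of all genes), so larger changes of the others could not be told from the spread between libraries.

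Cdh19, a cadherin of Schwann cell precursors and glia, had the smallest p of all members in both regions. Its lowest, median and highest library had 54.8, 72.5 and 96.03 in Foxp2hum/hum DMS, against 37.98, 55.7 and 69.95 in wild-type DMS. In DLS it had 44.96, 66.03 and 109 in Foxp2hum/hum, against 25.8, 51.4 and 80.5 in wild-type. The genotypes overlapped in both regions. The log2 difference was 0.37 in DMS (95% interval 0.04 to 0.70, limma adjusted p = 0.955) and 0.40 in DLS (95% interval 0.07 to 0.73, limma adjusted p = 0.843). In DMS, the members next in order on the positive side were Cdh7 with 0.20 and Cdh24 with 0.33, and on the negative side Pcdh11x with -0.27, Cdh12 with -0.26 and Cdh23 with -0.16 (limma adjusted p = 0.955 for each). In DLS they were Cdh18 with 0.09 and Cdh7 with 0.10 on the positive side, and Cdh24 with -1.01, Pcdh18 with -0.72 and Pcdh11x with -0.24 on the negative side (limma adjusted p between 0.843 and 0.863). The members with an unadjusted p under 0.05 were Cdh19 in DMS, Cdh19 and Cdh24 in DLS, and Cdh24 in the interaction. For Cdh24 the genotype difference changed sign between the regions, with an interaction of 1.34 (limma adjusted p = 1), and for Cdh12 the interaction was -0.31 (adjusted p = 1).

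More members had a negative than a positive genotype difference, 23 of 29 (79.3%) in DMS, where 49.9% of all genes were negative, and 21 of 29 (72.4%) in DLS, where 52% were. The median log2 difference of the members was small, -0.08 in DMS and -0.10 in DLS; over all genes it was 0.00 in DMS and -0.01 in DLS. The members share their libraries, so these counts are no independent evidence. With Ttr and Ccdc153 as covariates 19 of 29 were negative in DMS but 9 of 29 in DLS. Without libraries 70 and 72, 17 of 29 were negative in DMS and 19 of 29 in DLS. Both are wild-type libraries with high values of many members, and Foxp2hum/hum libraries with such values (80, 84 and 94) were kept. Leaving them out raises the genotype differences of those members by construction, so no conclusion is drawn from that fit. The share of all genes that were negative was not computed for either fit. Library 94 was the highest of Foxp2hum/hum DLS for 17 of the 29 members, library 72 the highest of wild-type DMS for 17 and library 70 the highest of wild-type DLS for 9. These 3 libraries also had the highest summed astrocyte markers of their groups, 52427 in library 94 (group median 26297), 42542 in library 72 (group median 29876) and 47476 in library 70 (group median 31752.5). The same held for summed septal neuron markers, with 858 in library 94, 759 in library 72 and 897 in library 70. Library 94 also led the endothelial and mural markers of its group, and library 70 the mural markers. None of these libraries led the oligodendrocyte or microglial markers. Library 72 had the lowest size factor of all libraries, 0.5392. The part of cell content or scaling in these values was not tested.

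**Figure D5:**
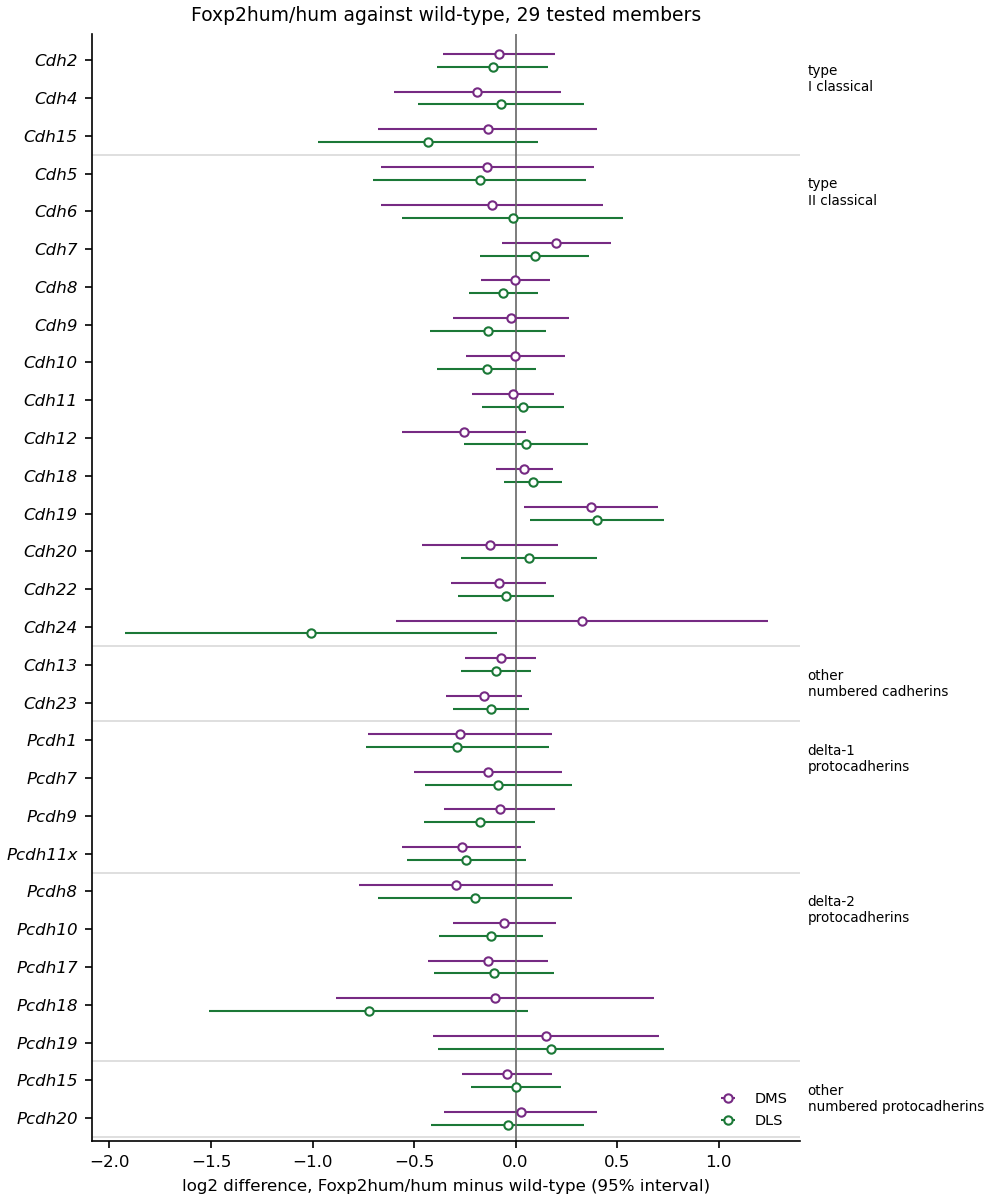
Log2 difference between Foxp2hum/hum and wild-type with its 95% limma interval for the 29 tested members in DMS (purple) and DLS (green); open points did not pass the adjusted threshold of 0.05. No member passed, Cdh19 lies right of 0 in both regions, and the interval is widest for Cdh24.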

How the data were processed

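Reads were aligned to mm9 with TopHat 1.4.1 and handled with bedtools and DESeq, per the submitters' processing notes, with counting settings not given in the sources used here. Libraries were indexed, pooled and run on 3 flow cells, and the flow cell of a library is not given. The deposited values are a normalised signal: the authors' read counts per gene divided by a DESeq size factor per library. Each library's values are whole reads times a constant (100% of values, to within 0.01), which gave back the reads; totals ran from 16.79 to 41.01 M reads (medians 24.36 in Foxp2hum/hum DMS, 22.84 in Foxp2hum/hum DLS, 23.83 in wild-type DMS and 20.43 in wild-type DLS). Of the 25259 genes, 25023 have their Ensembl identifier in GENCODE M1 (mm9), which gave positions, lengths and overlaps. Counts may take in whole spans on both strands, but this is not known. Genes that lie within a member and have at least 10% of its reads never, taken singly, had more reads than it in any of the 46 libraries. That is a weak check: apart from 4632428N05Rik within Cdh23 (90.03%), these genes had at most 47.63% as many reads as the member. The genes within Pcdh15 summed to more than it in 2 libraries each of 3 groups.

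The log2(value + 1) values were tested with limma 3.58.1 (R 4.3.3), with 4 group means over all 46 libraries and a mean of at least 10 (19561 genes), two-sided, with Benjamini-Hochberg adjustment over these genes and a threshold of 0.05. Fold changes are differences of mean log2(value + 1): the pseudocount shrinks changes of low genes, but such a fold can also exceed the ratio of group means, as for Cdh24 between regions in Foxp2hum/hum (3.03-fold, with a ratio of means of 2.20). Named with values are members that passed between regions, those with the highest levels per kb of exon and those with the smallest genotype p; partner genes are named where they passed. The members and all lists were chosen with earlier results of these data known. Alternatives were other pseudocounts, filters, scalings and thresholds, edgeR 4.0.16 and DESeq2 1.42.0 on recovered reads, array weights, fits without the groups not compared, Ttr and Ccdc153 as covariates, and each library left out in turn; leaving out libraries 70 and 72 together, and subtracting the reads of nested genes, were added after seeing the data. The fit was tested on simulated data.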

Additional observations from a re-analysis of the deposited data

How the results depend on the processing

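No paired analysis was possible because the libraries carry no replicate numbers or animals shared between groups. With each library left out in turn, 11 to 13 members passed between regions in Foxp2hum/hum and 9 to 12 in wild-type, and 0 in each genotype comparison and in the interaction. The regional counts moved by over 1.5 times in 4 fits: with Ttr as covariate 6 passed in Foxp2hum/hum, with Ttr and Ccdc153 together 4 in Foxp2hum/hum and 3 in wild-type, and with total-count scaling 7 in wild-type. With the other settings the counts in Foxp2hum/hum ran from 9 of 26 (mean of at least 50) to 15 (array weights), and those in wild-type from 8 (only the groups compared) to 12 (array weights). The sign of a called difference turned with Ttr and Ccdc153 as covariates for Pcdh7 in Foxp2hum/hum (0.15) and in wild-type (0.38), for Pcdh9 in wild-type (0.19) and for Cdh13 in wild-type (0.008), none of them past the threshold there; the cause was not tested. With the reads of nested genes subtracted, Cdh18 turned to -0.22 in both genotypes and Cdh23 to 0.86 in wild-type, by construction of that setting. Per kb of whole span, only 1 of the 5 highest members per kb of exon was among the 5 highest. The fits for genotype, region and interaction treat libraries as independent, and the depth limits the members with few reads, of which Cdh24 had 2 Foxp2hum/hum DLS libraries without a read.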

Other observations

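The member with the steepest regional difference was among those too low to be tested. Cdh29 had 232 recovered reads over the 12 Foxp2hum/hum DMS libraries, against 4 over the 12 Foxp2hum/hum DLS libraries, and 206 over the 11 wild-type DMS libraries, against 13 over the 11 wild-type DLS libraries. It was at 0 in 1 of the 12 DMS and 9 of the 12 DLS libraries of Foxp2hum/hum mice, in none of the wild-type DMS libraries and in 9 of 11 wild-type DLS libraries. Without the filter on low values, its log2 difference between DMS and DLS was 3.30 in Foxp2hum/hum (limma adjusted p = 1.76e-07) and 3.41 in wild-type (limma adjusted p = 2.68e-07), while none of the other 6 untested members passed in either genotype. Cdh29 was tested only without that filter and was singled out after its values were seen. It was in none of the fits with marker covariates, so the part of choroid plexus and ependyma content in its difference was not tested.

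For 2 members with nested genes, the reads of those genes were subtracted. The values left have a meaning only if these reads were also counted for the member, which is not known. Cdh18 kept 394 ± 41.7 normalised reads in DMS and 461 ± 66.5 in DLS of Foxp2hum/hum mice (SD, n = 12 each), and 398 ± 51.7 in wild-type DMS and 465 ± 63.2 in wild-type DLS (SD, n = 11 each). Its log2 difference between DMS and DLS was then -0.22 in Foxp2hum/hum (limma adjusted p = 0.0381) and -0.22 in wild-type (limma adjusted p = 0.0472). Cdh23 kept 48.9 ± 22.6 in DMS and 31.7 ± 11.1 in DLS of Foxp2hum/hum mice (SD, n = 12 each), with a log2 difference of 0.55 (limma adjusted p = 0.20), and 57.2 ± 39.7 in wild-type DMS and 29.9 ± 13.9 in wild-type DLS (SD, n = 11 each), with a log2 difference of 0.86 (limma adjusted p = 0.0389). For Pcdh15 the subtraction fell below 0 in some libraries and was not used.

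Averaged over the regions, a comparison added after seeing the data, Cdh19 was 0.39 higher in Foxp2hum/hum than in wild-type on the log2 scale (95% interval 0.15 to 0.62, limma adjusted p = 0.574). This was place 52 of the 19561 genes by p, and 0 genes passed. Its sign was the same in both regions under each alternative and with each library left out, with DMS values between 0.32 and 0.44 and DLS values between 0.31 and 0.56.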
